A study of Mus musculus with 10 samples.

Results

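Leukotriene and prostaglandin pathway genes are 10 genes taken from the deposited expression table by their symbols, out of 55414 genes in all. They are Alox5ap, Alox5, Lta4h and Ltc4s on the leukotriene side and Ptgs1, Ptgs2, Ptges, Ptger1, Ptger3 and Ptger4 on the prostaglandin side. The set was chosen by the TPM of Alox5ap, which are lower in every Camk2d-KO clone than in every Camk2d-intact sample, and because prostaglandin E2 acts on water transport in the collecting duct. The KO against intact values of Alox5ap are therefore given as a description without a test.

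The samples are mpkCCD cells, an immortalized mouse line of cortical collecting duct principal cells labelled with a C57BL/6 background. All 10 samples were grown on membrane filters for 7 days with 0.1 nM dDAVP, a vasopressin analog selective for the V2 receptor, so the data hold no sample without dDAVP. The 5 intact samples represent 3 lines, namely the parental wild-type line once and intact clones 1 and 2 with 2 samples each, the clones being derived from single cells that had received the CRISPR-Cas9 plasmid and kept Camk2d. The 5 KO samples are 5 clones, each derived from a single cell. A guide against exon 8 had been used for the clones KO 1 and KO 2, and a guide against exon 9 for the other 3 clones (KO 3 to KO 5). Because the sources used here do not say whether the 2 samples of an intact clone were separate cultures, p-values that rest on them may measure technical spread.

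Values are the authors' TPM, a unit that corrects for gene length and has the same total in all samples, so levels of different genes may be set side by side. Read numbers are lost in this unit, hence depth is not known for any sample and genes at 0 are called listed at 0. The targeted gene Camk2d had 123 to 141 TPM in intact samples and 19.8 to 29.8 TPM in KO clones. Among 14 principal cell markers, the water channel Aqp2, the vasopressin receptor Avpr2 and the transcription factor Gata3 were present in every sample, while Scnn1b, Kcnj1 and Elf5 stayed under 1 TPM in all of them. Marker levels moved in both directions. Aqp2 had 3773 to 5502 TPM in intact samples and 1281, 1618, 3789, 2879.72 and 2856 TPM in KO 1 to KO 5, and Avpr2 had 114 TPM in KO 2 against 192 to 264 TPM elsewhere. Hsd11b2, the glucocorticoid-inactivating enzyme of these cells, had 17.8 to 24.5 TPM in intact samples and 11.5, 114.93, 29.3, 43.1 and 27.45 TPM in KO 1 to KO 5, and the KO means of Scnn1a and Gata3 were 108% and 105.8% of the intact means. The summed level of the 14 markers was 11948 to 13354 TPM in intact samples and 8957 to 11845 TPM in KO clones. Most of this sum came from Aqp2, Krt18 (5162 to 5754 TPM over all samples) and Krt8 (1585 to 1943 TPM), and the groups overlapped in each of them. The sum therefore does not describe the markers as a set. Correlated over the 13047 genes with a mean of at least 1 TPM on the log2(TPM + 1) scale, KO 2 had a Pearson's r of 0.962 to 0.968 with the other samples, against 0.970 to 0.974 between KO 1 and the samples other than KO 2, and 0.974 to 0.984 among the remaining 8 samples. KO 2 thus stood apart, while the values of KO 1 came next and touched the range of the remaining samples. Values of the 10 genes that moved by over 1.5 times without either are given below.

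Both branches start from arachidonic acid, which phospholipase A2 releases from membrane lipids. In the leukotriene branch, 5-lipoxygenase, presented with its substrate by the 5-lipoxygenase-activating protein (FLAP), makes leukotriene A4, which a hydrolase turns into leukotriene B4 and a synthase conjugates with glutathione to leukotriene C4. In the prostaglandin branch, the cyclooxygenases make prostaglandin H2, from which the prostaglandin E synthases form prostaglandin E2, the main prostanoid of the collecting duct. Prostaglandin E2 acts through the receptors EP1 to EP4 and is known there for opposing the vasopressin-stimulated rise in water permeability and, through EP4, for raising cyclic AMP.

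**Figure D1:**
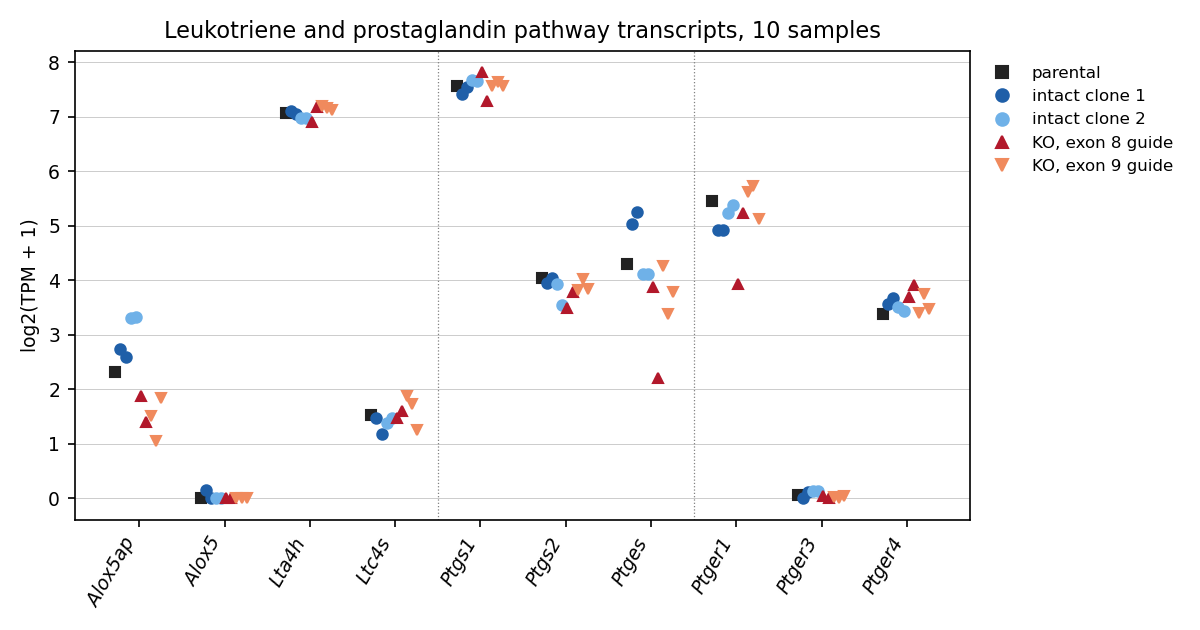
Level of each of the 10 genes in every sample, as log2(TPM + 1) on the y axis, with leukotriene genes on the left, prostaglandin synthesis genes in the middle and receptors on the right. Each marker is 1 sample, coloured by line or guide, and Alox5ap is the only gene in which all KO markers lie below all intact markers.

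By mean TPM over the 10 samples the order was Ptgs1 (190.9), Lta4h (134), Ptger1 (36.5), Ptges (17.8), Ptgs2 (13.6), Ptger4 (11.1), Alox5ap (4.26), Ltc4s (1.85), Ptger3 (0.041) and Alox5 (0.012). Ptgs1 and Lta4h did not exchange places in any sample. Ptges, Ptgs2 and Ptger4 overlapped in their ranges, since Ptges ran from 3.60 to 37.05 TPM, Ptgs2 from 10.32 to 15.59 TPM and Ptger4 from 9.48 to 14.1 TPM. Alox5 and Ptger3 lay below the 20000 genes with the highest mean TPM, whose lowest mean was 0.049 TPM, and were not tested. The other 8 genes were.

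Alox5ap (ENSMUSG00000060063), which encodes FLAP, a small protein of the nuclear envelope, lies at chr5:149264767-149288153 in GRCm38 (plus strand). It had 3.98 TPM in the parental line, 5.69 and 5.06 TPM in intact clone 1, and 8.97 and 9.04 TPM in intact clone 2. The KO clones, here and throughout from KO 1 to KO 5, gave 2.67, 1.64, 1.84, 1.08 and 2.59 TPM. The parental line, the lowest intact sample, and KO 1, the highest KO clone, are the values on either side of the gap that chose the gene.

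The KO mean of Alox5ap, 1.96 ± 0.669 TPM (SD, n = 5), was 30.0% of the intact mean of 6.55 ± 2.32 TPM (SD, n = 5). On the log2(TPM + 1) scale the difference was -1.32, a scale on which the change of a gene with few TPM is understated. Every KO sample was lower than every intact sample for 89 of the 20000 genes tested (0.445%), among them this gene by its selection, and every KO sample was higher for 239 (1.2%), among them 0 of the 10 genes. Together these are 1.64% of the genes tested. Beside this, the KO mean was 57.5% of the intact mean for Aqp2, in which the groups overlapped through KO 3. The authors found no significant decrease of the Aqp2 transcript. The part of such marker levels in the Alox5ap values was not tested. In bulk RNA, fewer cells with the transcript and less transcript per cell cannot be told apart. Without both samples of intact clone 2, which held the highest values, the difference was -1.02, and without both samples of intact clone 1 it was -1.45. Ordered by level, the lines ran intact clone 2, intact clone 1, parental, KO 1, KO 5, KO 3, KO 2 and KO 4. KO 1 and KO 5 differed by less than the 2 samples of intact clone 1, as did KO 3 and KO 2.

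Among comparisons not used to choose the gene, Alox5ap differed between the intact clones by 0.65 on the log2 scale, higher in clone 2 (standard error 0.27, limma unadjusted p = 0.0491, adjusted p = 0.616). That difference did not pass the adjusted threshold of 0.05, although both clone 2 samples lay above both clone 1 samples. Between the guides the difference, exon 9 KO minus exon 8 KO, was -0.17 (95% interval -0.95 to 0.61, limma adjusted p = 0.896), and the clones of the guides overlapped. The sign of this small difference turned without KO 1 (0.068) or without KO 4 (0.037), and without KO 2 it was -0.41.

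FLAP is best known from myeloid cells. Of 15 leukocyte markers, Adgre1, Tyrobp, Laptm5 and S100a9 were listed at 0 in all samples and 12 were under 1 TPM in all samples, including the pan-leukocyte Ptprc (at most 0.62 TPM, in KO 1) and Itgam (at most 0.03 TPM). The markers above 1 TPM were Cd14, Csf1r and Cd68, and the summed level of the list was 123 to 177 TPM in intact samples and 117 to 137 TPM in KO clones. Cd14 made up most of this sum, with 105.67 to 155 TPM in intact samples and 89.7 to 121 TPM in KO clones. Of 6 mast cell markers, 5 were listed at 0 throughout, with Hdc at no more than 0.34 TPM. The 6 markers of interstitial fibroblasts were all under 1 TPM. Of 6 intercalated cell markers, Atp6v1b1 had 21.8 to 49.3 TPM and the others at most 0.32 TPM.

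The enzyme that FLAP serves was close to absent from the table. Alox5 (ENSMUSG00000025701, chr6:116410077-116461178), 5-lipoxygenase itself, was listed at 0 in 9 of 10 samples and at 0.12 TPM in the first sample of intact clone 1. The other lipoxygenases fixed for this report, Alox12, Alox12b, Alox12e, Alox15, Alox8 and Aloxe3, reached at most 0.4 TPM in any sample.

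The enzymes downstream of leukotriene A4 were present at very different levels. Lta4h (ENSMUSG00000015889, chr10:93453411-93484875), the hydrolase that makes leukotriene B4 and that also works as an aminopeptidase, had 134, 136, 132, 126 and 125 TPM in the intact samples, in the order parental, clone 1 and clone 2. In KO 1 to KO 5 it had 119, 145, 147, 143 and 139 TPM. KO 1 lay below all other samples and the other 4 KO clones above every intact sample, so the groups overlapped through KO 1 alone. The difference KO minus intact was 0.08 (95% interval -0.055 to 0.21, limma adjusted p = 0.820), and without KO 1 it was 0.13.

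Ltc4s (ENSMUSG00000020377, chr11:50236461-50238616), leukotriene C4 synthase, had 1.88, 1.79, 1.26, 1.62 and 1.77 TPM in the intact samples and 1.79, 2.04, 2.66, 2.34 and 1.38 TPM in KO 1 to KO 5. The groups overlapped, and the difference was 0.18 (95% interval -0.11 to 0.47, limma adjusted p = 0.812), and 0.11 without KO 3. Its value is uncertain, because 268 of its exonic bases (26.4%) lie opposite exons of the antisense gene Gm26542, which had 2.03 to 2.95 TPM, and the full-length cDNA kit used does not mark strand. Alox5ap shares 189 exonic bases (13.3%) with the antisense gene Gm19719, which had at most 0.02 TPM.

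**Figure D2:**
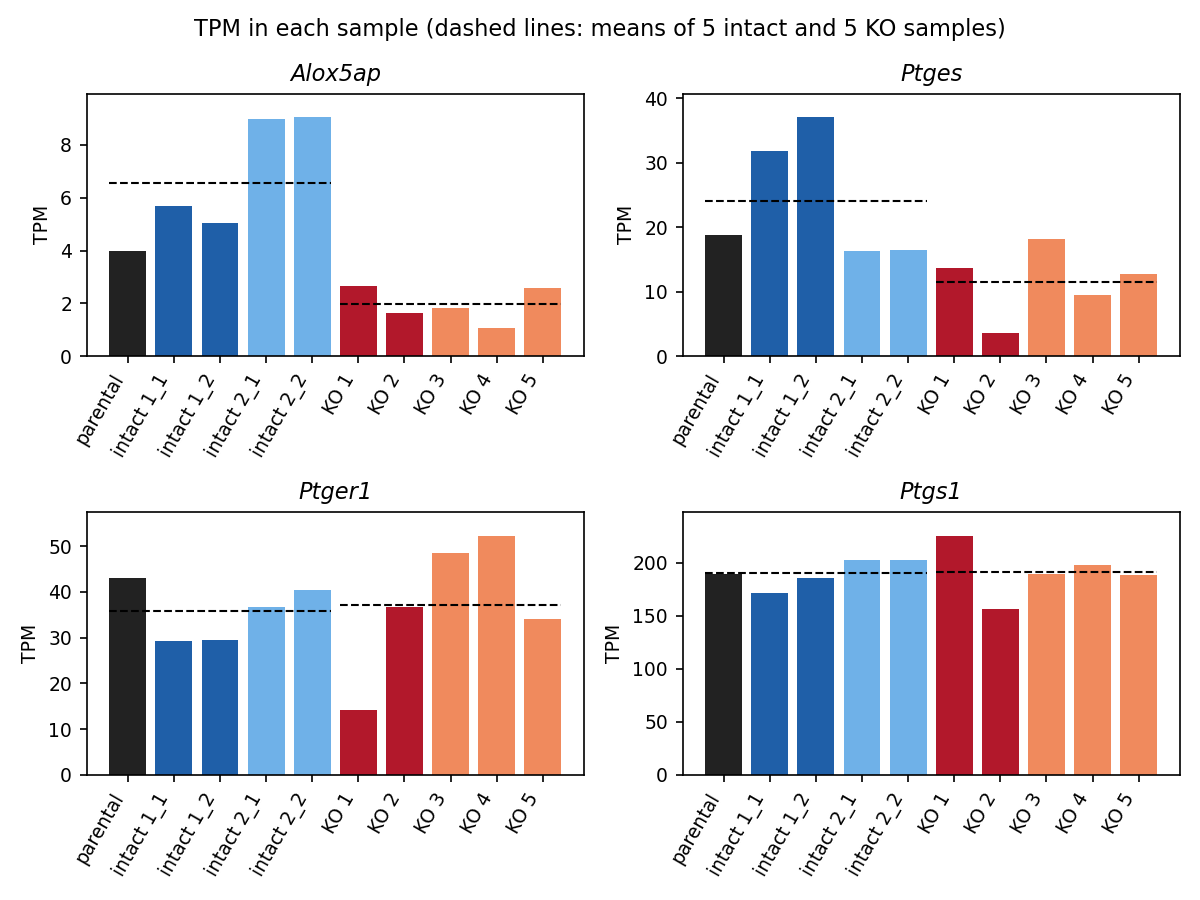
TPM of Alox5ap, Ptges, Ptger1 and Ptgs1 in each of the 10 samples, as bars from 0, with dashed lines at the means of the 5 intact and the 5 KO samples. The intact clone means were 5.38 and 9.01 TPM for Alox5ap and 34.4 and 16.4 TPM for Ptges, in the order clone 1 and clone 2, Ptger1 is lowest in KO 1, and Ptgs1 has nearly equal group means.

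On the prostaglandin side, the 3 synthesis genes ranged from 3.60 TPM (Ptges in KO 2) to 225 TPM (Ptgs1 in KO 1). Their promoters are shown because the genes are expressed here under a hormone that acts through cyclic AMP, and the cyclic AMP response element (CRE) is a known element of cyclooxygenase-2 regulation. Each sequence runs 5′ to 3′ on the gene's own strand from 250 bases before the RefSeq start to 50 bases after it, in GRCm38.p6, at chr2:36230176-36230475 (plus strand) for Ptgs1, chr1:150099781-150100080 (plus strand) for Ptgs2 and chr2:30903248-30903547 (minus strand) for Ptges. Capitals mark matches, on either strand, to the CRE half-site (letters TGACG), to the GC box (letters GGGCGG) or to the E-box (letters CACGTG).
Ptgs1: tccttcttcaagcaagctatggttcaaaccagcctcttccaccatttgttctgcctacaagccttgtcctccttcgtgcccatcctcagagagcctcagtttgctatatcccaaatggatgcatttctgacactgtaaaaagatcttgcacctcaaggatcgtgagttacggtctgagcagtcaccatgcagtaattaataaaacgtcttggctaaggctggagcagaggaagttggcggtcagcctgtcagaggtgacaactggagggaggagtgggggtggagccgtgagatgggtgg
Ptgs2: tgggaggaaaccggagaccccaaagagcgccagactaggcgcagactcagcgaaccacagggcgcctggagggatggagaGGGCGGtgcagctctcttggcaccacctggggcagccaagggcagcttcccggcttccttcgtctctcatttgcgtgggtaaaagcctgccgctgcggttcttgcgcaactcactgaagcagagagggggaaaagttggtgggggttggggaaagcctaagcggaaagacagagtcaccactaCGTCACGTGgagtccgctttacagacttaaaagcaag
Ptges: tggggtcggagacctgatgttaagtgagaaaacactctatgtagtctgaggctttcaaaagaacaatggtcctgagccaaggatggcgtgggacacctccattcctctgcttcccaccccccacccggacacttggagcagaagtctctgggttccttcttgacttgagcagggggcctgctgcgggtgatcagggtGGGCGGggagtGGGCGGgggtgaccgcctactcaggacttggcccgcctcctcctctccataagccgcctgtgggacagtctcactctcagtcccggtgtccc

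The Ptgs2 window held 1 CRE half-site and 1 E-box, which overlap in the last run of capitals, and 1 GC box. In the Ptges window there were 2 GC boxes and none of the other letters, and the Ptgs1 window held none of the 3 motifs. Of 32851 RefSeq windows of this length, 20.8% hold the half-site, 35.7% the GC box and 7.15% the E-box. These are matches of letters and not sites shown to be bound.

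Ptgs1 (ENSMUSG00000047250, chr2:36230426-36252272), the constitutive cyclooxygenase-1, had 189.5, 171, 185, 203 and 202 TPM in the intact samples. The KO clones had 225, 156, 189.7, 198 and 188 TPM. The clones of the exon 8 guide, KO 1 and KO 2, held the highest and the lowest value of all samples, and the intact samples fell between them. The means were 190.2 ± 13.1 and 191.5 ± 24.7 TPM (SD, n = 5 each), a log2 difference of 0.0028 with a 95% interval of -0.19 to 0.20 (limma adjusted p = 0.998), whose sign turned under several alternatives. It was -0.058 without KO 1 and 0.073 without KO 2.

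Ptgs2 (ENSMUSG00000032487, chr1:150100031-150108227), the inducible cyclooxygenase-2, was much lower than Ptgs1 in every sample. It had 15.59, 14.41, 15.55, 14.33 and 10.68 TPM in the intact samples and 10.32, 12.89, 13.17, 15.34 and 13.3 TPM in KO 1 to KO 5. The groups covered nearly the same range, and the difference was -0.11 (95% interval -0.38 to 0.16, limma adjusted p = 0.857). It was -0.034 without KO 1 and -0.20 without the second sample of intact clone 2. The ratio of Ptgs1 to Ptgs2 was 11.9 to 18.9 in intact samples and 12.1 to 21.8 in KO clones.

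Ptges (ENSMUSG00000050737, chr2:30889471-30929863) encodes the inducible microsomal prostaglandin E synthase-1 that works with cyclooxygenase-2. It varied most over the lines among the tested prostaglandin genes of the set. Intact samples had 18.79 TPM in the parental line, 31.83 and 37.05 TPM in clone 1, and 16.28 and 16.44 TPM in clone 2. KO 1 to KO 5 had 13.68, 3.60, 18.20, 9.47 and 12.76 TPM. Clone 1 stood above and KO 2 below all other samples, and the groups overlapped because KO 3 lay above both clone 2 samples. Over the 8 lines the highest level, in intact clone 1, was 9.57 times the lowest, in KO 2.

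The mean of Ptges was 24.1 ± 9.69 TPM in intact samples and 11.5 ± 5.43 TPM in KO clones (SD, n = 5 each), so the KO mean was 47.9% of the intact mean. The difference was -1.06 (standard error 0.38, 95% interval -1.89 to -0.23), with a limma unadjusted p of 0.0170 and an adjusted p of 0.624, so it did not pass the threshold. It depended on clone 1 and on KO 2. Without both samples of intact clone 1 it was -0.68 (limma adjusted p = 0.927), and without KO 2 it was -0.74 (limma adjusted p = 0.579). The clone difference itself, clone 2 minus clone 1, was -1.03 (95% interval -2.23 to 0.18, limma adjusted p = 0.715). Exon 9 KO minus exon 8 KO was 0.77 (95% interval -0.38 to 1.92, limma adjusted p = 0.599), and without KO 2 this was -0.065, without KO 1 1.61.

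Of the 4 receptors for prostaglandin E2, only Ptger1 and Ptger4 reached 1 TPM in any sample. Ptger1 (ENSMUSG00000019464), the calcium-coupled EP1 receptor, had 43.13, 29.33, 29.42, 36.73 and 40.49 TPM in the intact samples and 14.26, 36.80, 48.46, 52.27 and 33.97 TPM in KO 1 to KO 5. KO 1 lay below all other samples and KO 3 and KO 4 above all others, so that the KO clones enclosed the intact range. The difference KO minus intact was -0.05 (95% interval -0.71 to 0.61, limma adjusted p = 0.985). It was 0.25 without KO 1, 0.31 with the exon 9 clones alone and -0.60 with the exon 8 clones alone, none of which passed the adjusted threshold.

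Between the guides, Ptger1 was 25.5 TPM in the mean of the exon 8 clones and 44.9 TPM in that of the exon 9 clones, a log2 difference of 0.91 (95% interval 0.14 to 1.68, limma unadjusted p = 0.0252, adjusted p = 0.351). KO 5 from the exon 9 guide lay below KO 2 from the exon 8 guide. Without KO 2 the difference was 1.57 and passed the threshold (limma adjusted p = 0.0313), but KO 1 was then the only exon 8 clone and was assumed to vary like the other groups. Without KO 1 it was 0.26 (limma adjusted p = 0.673).

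The Ptger1 values need care. The gene lies at chr8:83666678-83672753 in GRCm38 (plus strand), and only 36.7% of the 50-base windows of its exons occur in no other gene on either strand. Its reads were thus divided by the authors' quantification and not by strand, and the part of this in the Ptger1 differences was not tested.

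Ptger4 (ENSMUSG00000039942, chr15:5206661-5244187), the EP4 receptor that raises cyclic AMP, was steadier. It had 9.48, 10.86, 11.73, 10.42 and 9.84 TPM in the intact samples and 12.02, 14.11, 9.59, 12.54 and 10.10 TPM in KO 1 to KO 5. The groups overlapped, and the difference was 0.14 (95% interval -0.10 to 0.37, limma adjusted p = 0.820), and 0.069 without KO 2. Of its exonic bases, 15.3% lie opposite the pseudogene Gm15937, which had at most 0.24 TPM. Another gene, Ttc33, lies opposite 1.23% of them and had 54.9 to 64.1 TPM. The part of these overlaps in the Ptger4 values was not tested. For Ptger4, exon 9 KO minus exon 8 KO was -0.26 (95% interval -0.57 to 0.042, limma adjusted p = 0.485), and -0.16 without KO 2.

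Ptger3 (ENSMUSG00000040016, chr3:157566892-157645888), the EP3 receptor that lowers cyclic AMP and is known to oppose vasopressin, had 0.05, 0, 0.08, 0.1 and 0.1 TPM in the intact samples and at most 0.03 TPM in the KO clones. Ptger2, for the EP2 receptor, was listed at 0 in all 10 samples. At these levels no comparison was made.

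The comparisons of guides and of intact clones not given above did not pass the threshold. Exon 9 KO minus exon 8 KO was 0.12 for Lta4h (limma adjusted p = 0.599), 0.079 for Ltc4s (limma adjusted p = 0.920), 0.032 for Ptgs1 (limma adjusted p = 0.959) and 0.25 for Ptgs2 (limma adjusted p = 0.592). Without KO 1 and without KO 2, in that order, these guide differences were -0.023 and 0.26 for Lta4h, 0.017 and 0.14 for Ltc4s, 0.29 and -0.23 for Ptgs1, and 0.10 and 0.40 for Ptgs2. Intact clone 2 minus clone 1 was -0.096 for Lta4h (limma adjusted p = 0.886), 0.10 for Ltc4s (limma adjusted p = 0.983), 0.18 for Ptgs1 (limma adjusted p = 0.853), -0.26 for Ptgs2 (limma adjusted p = 0.794), 0.38 for Ptger1 (limma adjusted p = 0.908) and -0.14 for Ptger4 (limma adjusted p = 0.907). The value for Ptgs2 was -0.059 without the second and -0.45 without the first sample of intact clone 2. Over the 8 lines, the highest level was 1.24 times the lowest for Lta4h, 1.44 times for Ptgs1, 1.49 times for Ptger4, 1.51 times for Ptgs2 and 1.93 times for Ltc4s, against 3.67 times for Ptger1, 8.34 times for Alox5ap and 9.57 times for Ptges.

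**Figure D3:**
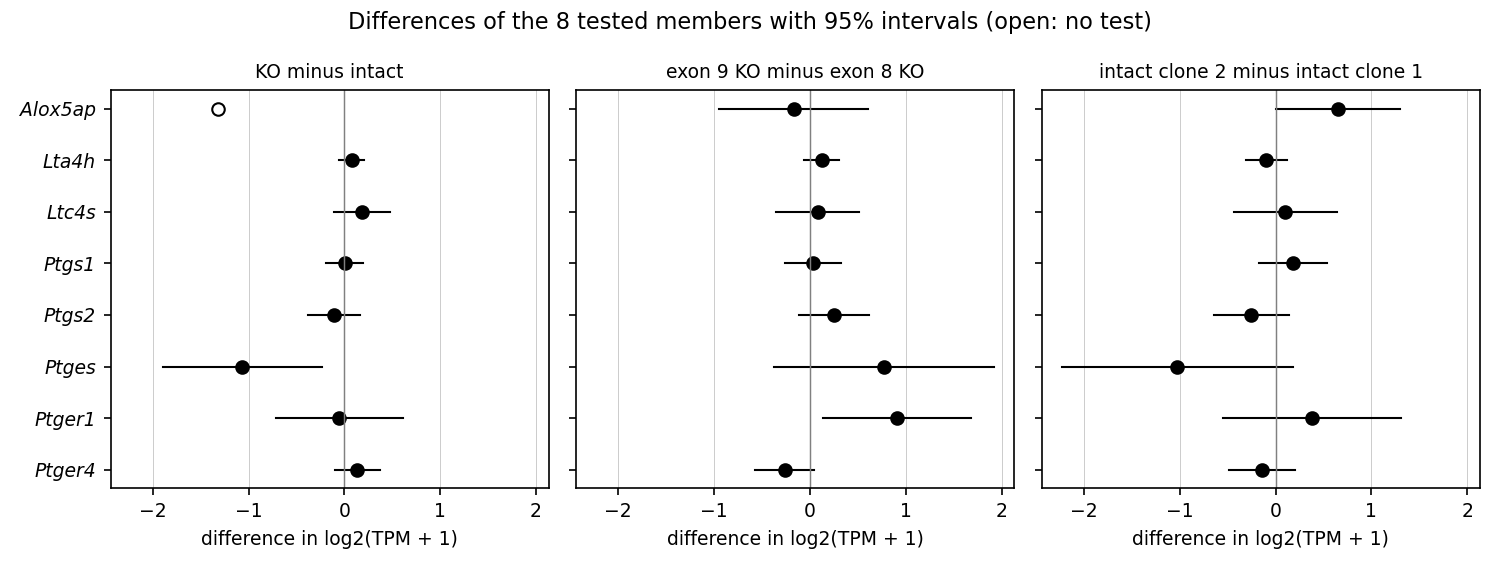
Differences in log2(TPM + 1) of the 8 genes tested, on the x axis, with limma's 95% intervals, for KO minus intact, exon 9 KO minus exon 8 KO and intact clone 2 minus intact clone 1. The open circle marks Alox5ap in the comparison that chose it, drawn without an interval, and the widest interval in the first panel is that of Ptges.

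In the fit of all 20000 genes, KO against intact called 1 gene at a limma adjusted p under 0.05 (0.005% of the genes tested), which was Camk2d. Of the 7 pathway genes tested in it, 0 were called and 1, Ptges, had an unadjusted p under 0.05, as did 1398 of all 20000. Exon 9 KO against exon 8 KO called 62 genes (0.31%), of which 0 were among the 8 pathway genes tested, and 1 of the 8, Ptger1, had an unadjusted p under 0.05, as did 2423 of all 20000. Intact clone 2 against intact clone 1 called 34 genes (0.17%), again 0 of the 8, with 1, Alox5ap, at an unadjusted p under 0.05, beside 1613 of all 20000. The comparison of the guides and that of the intact clones share 1 estimate of the spread each over all 10 samples. The median log2 difference was 0.0028 for the 7 genes in KO against intact, beside 0.019 over all genes.

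The rest of the eicosanoid pathway was read from a list of 60 further genes, of which 15 were listed at 0 in all samples, 21 had a mean of at least 1 TPM and 34 were among the genes tested. KO against intact called 0 of the 34, and 2 had a limma unadjusted p under 0.05, beside 1398 of all 20000. Exon 9 KO against exon 8 KO called 1 lower and 0 higher, beside 62 of all 20000 (0.31%). In it 10 of the 34 had a limma unadjusted p under 0.05, beside 2423 of all 20000. Intact clone 2 against clone 1 called 0, and 3 had a limma unadjusted p under 0.05, beside 1613 of all 20000. By class, the 34 tested genes were 8 of 17 for arachidonate release, 1 of 6 other lipoxygenases, 7 of 11 for other leukotriene synthesis and breakdown, 4 of 6 leukotriene receptors and exporter, 8 of 10 other prostanoid synthases, 2 of 3 for prostaglandin breakdown and transport and 4 of 7 other prostanoid receptors. The median log2 difference of the 34 was 0.014, -0.035 and 0.046 in the 3 comparisons.

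**Figure D4:**
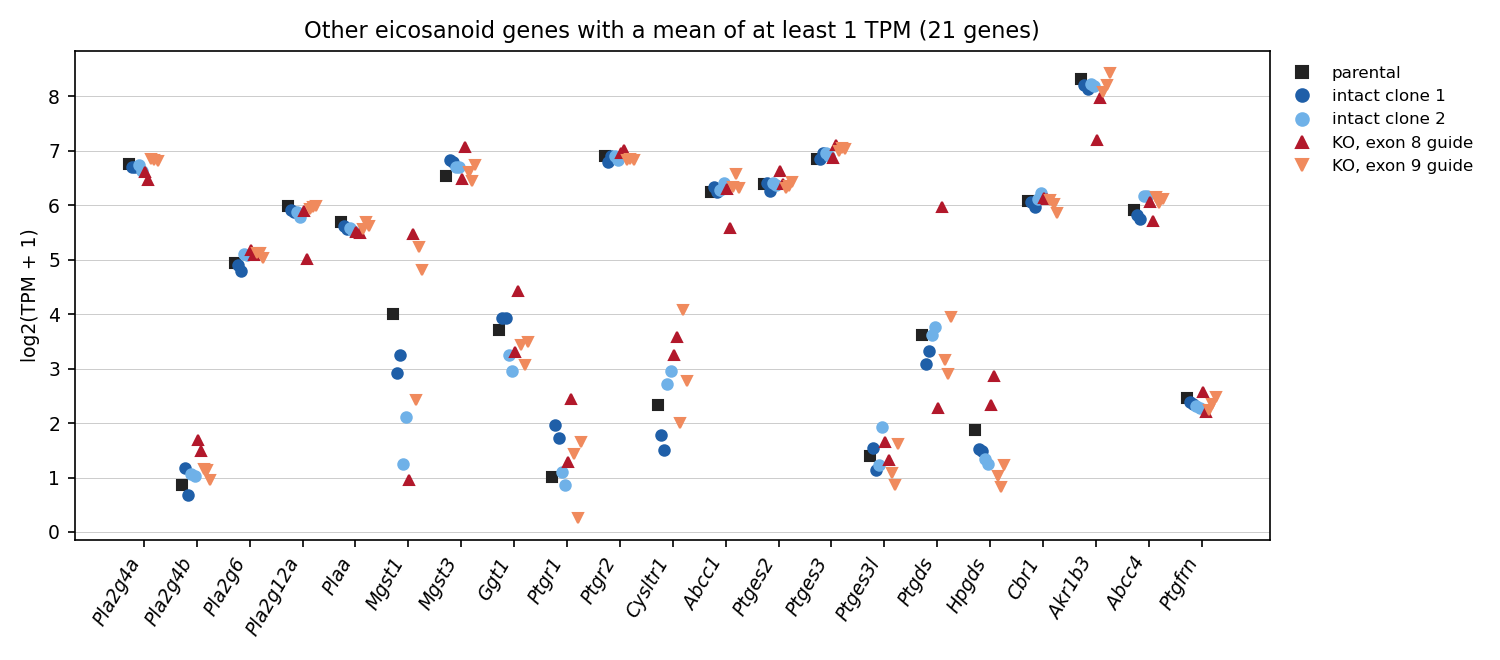
Level of the 21 further eicosanoid genes with a mean of at least 1 TPM, as log2(TPM + 1) on the y axis, with 1 marker per sample. Most genes show the 10 samples close together, while Mgst1, Ptgds, Cysltr1, Ptgr1 and Hpgds spread over the lines.

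Pla2g3, a secreted phospholipase A2 named after its values were seen, was the 1 gene of the list with a lowest KO value above all intact values. It had 0 to 0.07 TPM in intact samples and 0.08 to 0.19 TPM in KO clones (limma unadjusted p = 0.0249, adjusted p = 0.651). Every KO sample was higher than every intact sample for 239 of the 20000 genes tested (1.2%). The Pla2g3 values lie close to 0, and depth is not known.

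Of the 17 genes for arachidonate release, 8 were listed at 0 in all samples and 4 had a mean of at least 10 TPM. Of these 4, Pla2g4a, the calcium-regulated cytosolic phospholipase A2 that supplies arachidonic acid, had 97.88 to 108 TPM in intact samples and 87.7 to 115 TPM in KO clones. Its difference between the guides was 0.30, higher in exon 9 clones (95% interval 0.17 to 0.43, limma adjusted p = 0.0794), with all 3 exon 9 clones above both exon 8 clones. Pla2g12a, a secreted phospholipase A2, had 31.2 TPM in KO 2 and 53.8 to 62.5 TPM in the other samples. Pla2g6, the calcium-independent phospholipase A2, had 26.8 to 35.4 TPM and Plaa, a phospholipase A2 activating protein, 43.8 to 51.0 TPM.

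The prostaglandin E synthase genes Ptges2 and Ptges3 were higher than Ptges in every sample. Ptges2, the microsomal type 2 enzyme, had 75.6 to 97.4 TPM, and Ptges3, the cytosolic enzyme that is also the p23 co-chaperone, had 114 to 137 TPM. Akr1b3, an aldose reductase with prostaglandin F synthase activity, had 279 to 319 TPM in intact samples and 147, 249.95, 269.7, 294 and 344 TPM in KO 1 to KO 5. KO 1 was the lowest, and the difference between the guides was 0.65 (limma adjusted p = 0.223). Cbr1, a carbonyl reductase that acts on prostaglandin E2, had 57.0 to 73.5 TPM.

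Hpgds, hematopoietic prostaglandin D synthase, was the 1 gene of the list called between the guides. It had 4.04 and 6.24 TPM in KO 1 and KO 2 against 1.05, 0.77 and 1.34 TPM in KO 3, KO 4 and KO 5, a log2 difference of -1.57 (95% interval -2.07 to -1.06, limma adjusted p = 0.0332). Intact samples had 1.38 to 2.65 TPM, between the guides. The call was lost in 8 of 16 alternatives, among them 1 value per cell line (limma adjusted p = 0.105). Leaving out any 1 of the 4 intact clone samples or any 1 of KO 3, KO 4 and KO 5 also lost it, with adjusted p values of 0.0603, 0.0690, 0.0684 and 0.0642 and of 0.110, 0.0858 and 0.0746 in that order. Ptgds, the lipocalin-type prostaglandin D synthase, had 61.7 TPM in KO 2 and 3.87 to 14.4 TPM in the other 9 samples.

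Exporters and catabolic genes were also read. Abcc1, which exports leukotriene C4, had 46.8 TPM in KO 2 and 74.4 to 94.4 TPM elsewhere, and Abcc4, which exports prostaglandins, had 51.6 to 71.2 TPM. Hpgd, the main enzyme of prostaglandin breakdown, was listed at 0 in all samples. Ptgr2, a prostaglandin reductase, had 110.2 to 128 TPM, and Ggt1, which cleaves leukotriene C4, had 20.4 TPM in KO 2 and 6.77 to 14.3 TPM elsewhere. Mgst3, a relative of Ltc4s with glutathione transferase activity, had 86.2 to 134 TPM.

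The genes whose pattern over the 10 samples was most like that of Alox5ap were found by the mean absolute distance between log2(TPM + 1) profiles, each centered on its own mean, among 13046 other genes with a mean of at least 1 TPM. The 5 nearest were D630011A20Rik (distance 0.33), H60c (0.33), Cys1 (0.34), Airn (0.35) and Tmsb15b1 (0.36), and the median distance over all genes was 0.68. H60c encodes a ligand of the activating receptor NKG2D, Cys1 a protein of the primary cilium, and Airn is a long noncoding RNA antisense to Igf2r. H60c had 6.54 and 5.78 TPM in intact clone 2 and 0.97 to 3.30 TPM in the KO clones. Of the 5, KO and intact samples did not overlap in Tmsb15b1 and overlapped in the other 4. These distances also hold the KO against intact difference that chose Alox5ap.

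**Figure D5:**
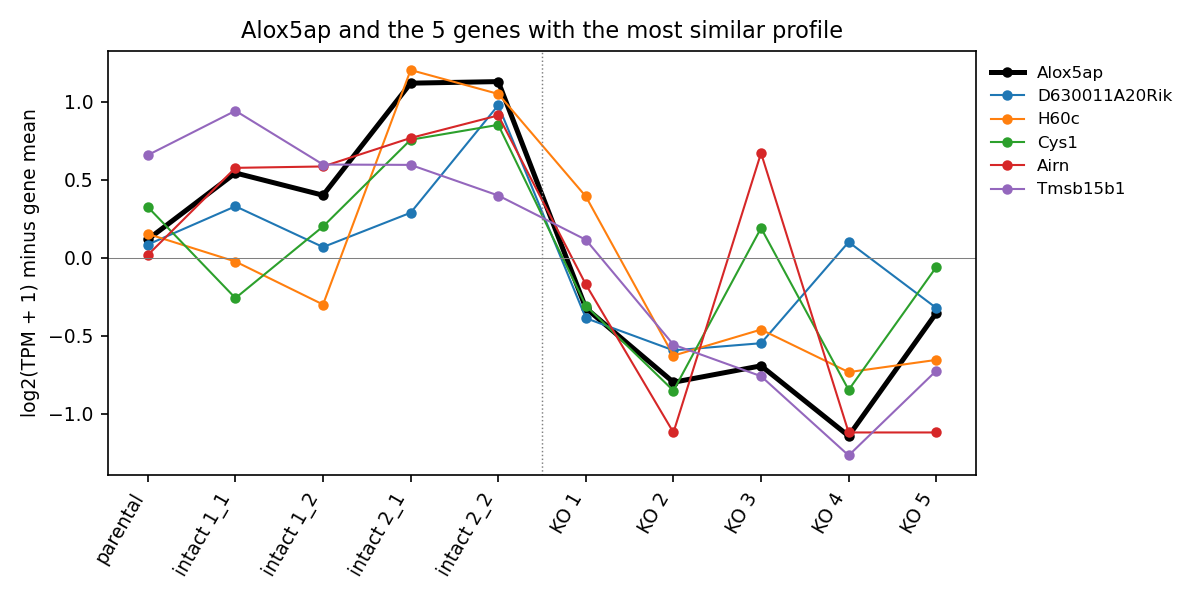
Profiles of Alox5ap (thick black line) and the 5 nearest genes, as log2(TPM + 1) minus each gene's mean on the y axis, over the 10 samples on the x axis, with a dotted line between intact samples and KO clones. Tmsb15b1 is the 1 of the 5 genes in which every KO clone lies below every intact sample, and Airn and Cys1 rise again in KO 3.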

How the data were processed

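RNA-seq was run on full-length cDNA as 50-bp pairs, and the authors used STAR for alignment and RSEM for quantification. Their deposited table gives TPM for each Ensembl gene in 10 samples, and no column of it was left unused. Groups follow the sample labels, and the guide of each KO clone number follows the paper's supplement. The authors tested expected counts, which were not used here, so log2(TPM + 1) of the 20000 genes with the highest mean TPM was modelled with limma (version 3.58.1, R 4.3.3, eBayes with trend) and Benjamini-Hochberg adjustment over all of them, with a threshold of 0.05. KO against intact was fitted on 5 and 5 samples. Exon 9 KO against exon 8 KO was fitted on all samples in 3 groups, and intact clone 2 against clone 1 in 5 groups. Tested on simulated data for KO against intact with 200 of 20000 genes changed, the procedure recovered 89.5% at a log2 change of 1 and 95.5% at 2. It made 11 and 12 false calls, in that order. The simulated samples were independent, unlike the repeated samples of the intact clones, and the changed genes were drawn from all 20000. These shares therefore do not give the power for the pathway genes.

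The genes and lists were chosen with earlier results of these data known. Genes are named by a rule, which takes the 10 genes, further eicosanoid genes that were called or had a mean of at least 10 TPM, genes whose exons overlap a member (1 is not reported here) and the 5 genes nearest to Alox5ap. Alox12 and the other lipoxygenases, Hpgd, Ptger2, Cysltr1, Ptgr1 and Pla2g3 were named after their values were seen. Coordinates, overlaps and 50-base windows come from GENCODE M21 on GRCm38 and promoters from RefSeq on GRCm38.p6, where 8 of the 10 genes matched an entry, without Alox5ap and Ptger1. The authors used a later annotation. Tables and plots were made in Python 3.11.15 (numpy 2.4.6, pandas 2.3.3, scipy 1.17.1, matplotlib 3.10.9). The alternatives were a pseudocount of 0.1, a mean of at least 1 TPM, all genes above 0, median-ratio scaling, no trend, 1 value for each cell line, a random effect of the line (statmod 1.5.0, consensus correlation 0.606), the clones of 1 guide alone, and leaving out each sample. Leaving out both samples of an intact clone was added after seeing the data.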

Additional observations from a re-analysis of the deposited data

Results flagged for a closer look

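The following values of single samples lay far from the other 4 of their group, by a gap over 0.71 of the group's range (Dixon's 95% value for 5 samples). Of 54 groups looked at, for 27 genes, 8 stood out. About 1 in 20, or 2.7, would do so if each group held 5 independent normal values. The intact samples include repeated samples of the clones, so 2.7 is not an exact expectation here. A group with all values at 0, as Alox5 in the KO clones, cannot stand out, and 1 value above 0 among zeros always does. Among intact samples they were Alox5 in the first sample of clone 1 (0.12 TPM against 0 in the others), Ptgs2 in the second sample of clone 2 (10.68 TPM against 14.33 to 15.59) and Ptges2 in the second sample of clone 1 (75.6 TPM against 82.0 to 84.4). Lta4h was 118.56 TPM in KO 1 against 138.52 to 146.53 TPM in the other KO clones.

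In KO 2 there were 4 such values, more than in any other sample. They were Pla2g12a (31.2 TPM against 58.3 to 62.4), Ggt1 (20.4 TPM against 7.42 to 10.2), Ptgds (61.7 TPM against 3.87 to 14.4) and Abcc4 (51.6 TPM against 65.0 to 70.5). KO 2 was also the sample with the lowest correlation to the others.

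Hpgds differed between the KO clones of the guides by a log2 difference of -1.57 (limma adjusted p = 0.0332), lower in exon 9 clones, and over its alternatives the adjusted p ran from 0.00523 to 0.110. The guide and a difference between these 5 clones cannot be told apart.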

How the results depend on the processing

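Of 395 recomputed and tested differences of the 8 genes, 18 changed sign and 1 passed the threshold, Ptger1 between the guides without KO 2 (1.57, limma adjusted p = 0.0313). Filters, the trend setting and samples outside a comparison leave its log2 difference as it is by construction, so the other values are no count of stability. For KO against intact, the 21 values of Alox5ap, not tested, ran from -1.68 to -1.02, and Ptges from -1.53 to -0.68 with a limma adjusted p of 0.328 to 1.00. Ptgs1 turned to -0.026 with median-ratio scaling, -0.017 with exon 8 clones alone and -0.058 without both samples of intact clone 1, and its range with single samples left out was -0.058 to 0.073. Ptger1 turned to 0.31 with exon 9 clones alone and 0.028 without both samples of intact clone 2, and ranged from -0.20 to 0.25 with single samples left out. Between the guides, leaving out single samples gave -0.41 to 0.068 for Alox5ap, -0.047 to 0.26 for Ltc4s, -0.023 to 0.26 for Lta4h, -0.23 to 0.29 for Ptgs1 and -0.065 to 1.61 for Ptges. Between the intact clones it gave -0.051 to 0.25 for Ltc4s, -0.45 to -0.059 for Ptgs2 and -0.19 to -0.092 for Ptger4 (the last without the second sample of clone 1). For KO against intact it gave 0.11 to 0.27 for Ltc4s, 0.055 to 0.13 for Lta4h, -0.20 to -0.034 for Ptgs2 and 0.069 to 0.20 for Ptger4. The cause was not tested.

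The number of genes called in KO against intact was 1, and 2 with a pseudocount of 0.1, 50 with exon 8 clones alone, and 1 to 2 with single samples left out (2 without the parental sample or KO 2). Between the guides it was 62, and 6 with 1 value per cell line and 21 to 1730 with single samples left out, the highest without KO 1, 634 without KO 2 and 21 to 31 without any 1 of KO 3, KO 4, KO 5 and the intact clone samples. Between the intact clones it was 34, and 64 with all genes above 0, 19 without a trend and 12 to 195 with single samples left out (195 without KO 1, 194 without KO 2, 12, 20 and 13 without KO 3, KO 4 and KO 5, and 65, 69 and 69 without either clone 1 sample and the first clone 2 sample). No paired analysis was possible because the replicate numbers only name the samples and nothing ties an intact sample to a KO clone of the same number. Depth is unknown, so the counting error of low genes cannot be given.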

Other observations

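Cysltr1 and Mgst1 had a wide spread over the lines within both groups. Cysltr1, the receptor for cysteinyl leukotrienes and named after its values were seen, had 4.01 TPM in the parental line, 2.45 and 1.84 TPM in intact clone 1, and 5.57 and 6.75 TPM in intact clone 2. The KO clones had 8.46, 11.0, 3.00, 15.9 and 5.88 TPM, with KO 3 inside the intact range and KO 5 too. The log2 difference KO minus intact was 0.88 (95% interval 0.0040 to 1.76, limma unadjusted p = 0.0491, adjusted p = 0.711), which did not pass the threshold.

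Mgst1, a microsomal glutathione transferase of the same protein superfamily as FLAP and leukotriene C4 synthase, had 15.01 TPM in the parental line, 6.54 and 8.49 TPM in intact clone 1, and 1.37 and 3.35 TPM in intact clone 2. KO 1 to KO 5 had 0.94, 43.4, 4.38, 36.8 and 27.2 TPM. KO 1 lay below every intact sample and 3 KO clones lay above all of them, so the KO clones were split (limma adjusted p = 0.820).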
